A study of Mus musculus with 8 samples.

Results

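Immediate early genes are the genes a cell switches on first after a stimulus, from factors already present in it, and the cAMP response genes overlap with them. The set described here holds 9 genes: Crem, Dusp8, Dusp1, Fos, Junb, Egr1, Ier3, Nr4a1 and Atf3. They were found as the probes of the deposited value table whose platform gene symbol is one of these names, which gave 12 probes for 9 of the 15967 named genes on the arrays. Crem has 4 probes and each other member 1. Of the members, 8 passed the filter on dim probes (above a noise limit of 36.7 intensity units on at least 2 arrays), 7 of them on all 8 arrays, and Nr4a1 did not pass. Members were chosen by earlier results of these arrays. Crem and Dusp8 had been selected on their differences between acLDL and no treatment in wild type cells, and Ier3 was named there, so member values in that comparison are a description with no test.

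RNA from 8 samples was measured on Illumina mouse beadchips, 1 sample per array and 2 arrays in each of 4 groups: IRAK4 KI with acLDL, IRAK4 KI untreated, wild type with acLDL and wild type untreated. IRAK4 KI stands, per the study's design text, for mice with a knock-in that inactivates the kinase IRAK4, which acts below the Toll-like receptors. The labels describe macrophages grown for 5 days in L929-conditioned medium from bone marrow of female 129/BL6 mice, the same in all groups, and acLDL (acetylated low-density lipoprotein, a modified particle taken up by scavenger receptors) was given at 100 ug/ml for 24 hours. Whether the 2 samples of a group were grown separately or came from different mice is not said in the labels. The p-values therefore cover the spread between the arrays alone, which may be technical, and the number of arrays limits the precision.

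The labelled cell type was set against marker genes. Of 10 lung epithelium markers with a probe, 9 were above noise on all 8 arrays, and the surfactant gene Sftpc had between 30721.1 and 42211.7 intensity units. Of 13 macrophage markers 9 were above noise on all 8 arrays, while Itgam (the integrin CD11b), Fcgr1, Msr1 and Cd36 were on none. Each array had between 11026 and 11033 probes above noise. No probe in the annotation is assigned to Irak4, so the genotype was not checked on these values, and KI, wild type (WT), acLDL and untreated stand for the labels of the arrays. Of 8 endothelium markers 7 were above noise on all 8 arrays, Cldn5 among them at 14790.7 to 19598 intensity units. With these genes bright and 4 macrophage markers dim, it is uncertain whether the deposited values belong to the labelled cells, or whether the annotation, which is of another platform, names these probes correctly. Every gene and group named here carries that doubt. The arrays measured RNA of whole samples, in which fewer cells of a type and less RNA per cell cannot be told apart.

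A pair of signalling routes is known to control these genes. MAP kinases act through serum response factor and its ELK partners on Fos, Egr1, Junb and Ier3, and cAMP acts through protein kinase A on the factor CREB, which binds the cAMP response element in promoters. Crem belongs to the CREB family, and its inducible short products repress the same elements. Dusp1 and Dusp8 encode phosphatases that switch MAP kinases off, so both genes are parts of a negative feedback. Immediate early transcripts usually peak soon after a stimulus and then decline, whereas the acLDL arrays were made at 24 hours.

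The letters of the cAMP response element were looked up in the promoters of the members, because the name of the set rests on it. In the RefSeq promoter table (build GRCm38.p6), 7 of the 9 members were matched by symbol, and Crem and Egr1 were not. The 250 bases before each annotated start site are given for the MAP kinase phosphatases Dusp8 and Dusp1, which hold the full palindromic element TGACGTCA, for Fos, which holds only its 5-letter part TGACG, and for Ier3, which holds neither. Capitals mark TGACG on either strand and the full element, each full element being made of overlapping 5-letter parts on both strands. Dusp8 lies on the minus strand at chr7:142095285-142095534, Dusp1 on the minus strand at chr17:26508473-26508722, Fos on the plus strand at chr12:85473640-85473889 and Ier3 on the plus strand at chr17:35821463-35821712.
Dusp8: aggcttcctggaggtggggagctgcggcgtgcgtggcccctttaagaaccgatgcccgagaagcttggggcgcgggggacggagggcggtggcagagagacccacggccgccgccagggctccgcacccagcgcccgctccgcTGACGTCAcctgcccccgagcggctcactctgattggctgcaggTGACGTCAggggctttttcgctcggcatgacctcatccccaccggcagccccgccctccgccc
Dusp1: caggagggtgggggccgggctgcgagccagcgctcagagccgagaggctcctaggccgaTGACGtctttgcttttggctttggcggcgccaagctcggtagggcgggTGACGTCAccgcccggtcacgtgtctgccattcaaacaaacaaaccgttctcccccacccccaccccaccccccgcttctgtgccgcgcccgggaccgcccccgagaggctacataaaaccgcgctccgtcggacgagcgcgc
Fos: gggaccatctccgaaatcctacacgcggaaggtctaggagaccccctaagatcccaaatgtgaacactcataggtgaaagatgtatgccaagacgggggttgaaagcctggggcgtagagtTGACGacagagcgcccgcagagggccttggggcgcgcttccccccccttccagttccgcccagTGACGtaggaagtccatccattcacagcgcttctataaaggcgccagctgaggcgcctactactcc
Ier3: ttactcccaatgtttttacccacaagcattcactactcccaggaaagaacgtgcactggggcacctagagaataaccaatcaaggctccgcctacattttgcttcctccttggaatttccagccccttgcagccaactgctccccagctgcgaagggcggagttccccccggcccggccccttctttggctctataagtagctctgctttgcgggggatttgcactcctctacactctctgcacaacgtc

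The Dusp8 window held 2 full elements, the first starting 107 bases and the second 63 bases before the start site. The Dusp1 window held 1, starting 143 bases before it. A full element occurred in 1.55% of all 32851 promoter windows of this length and in 2.38% of the 9079 windows of genes tested here. The 5-letter part alone was more common, at 17.8% of all windows and 25.2% of those of tested genes, and 6 of the 7 matched members held it, Nr4a1 in 4 places. The AP-1 site TGANTCA (in 6.75% of all windows) and the CArG box of serum response factor (in 1.47%) occurred in none of the 7. Such matches describe letters in this window and show no binding. Sites outside the window were not searched, and neither were the promoters of Crem and Egr1, so an absence here does not mean a gene lacks the site.

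**Figure D1:**
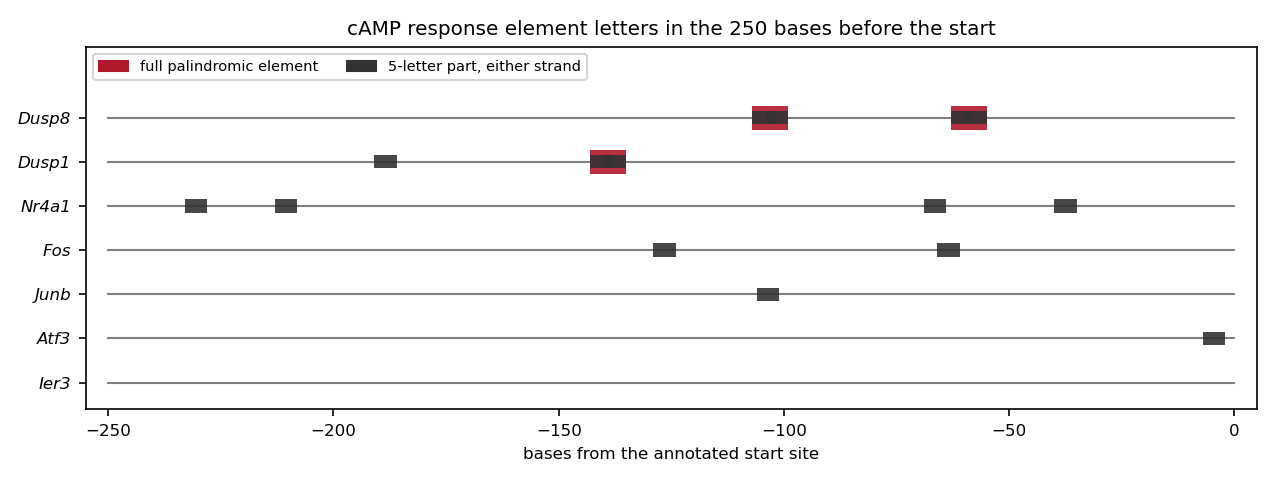
Position of cAMP response element letters in the 250 bases before the annotated start site of 7 members; the x axis is the distance from the start site in bases, red boxes are the full palindromic element and dark boxes its 5-letter part on either strand. Dusp8 has 2 full elements and Dusp1 has 1, Nr4a1, Fos, Junb and Atf3 have the 5-letter part only, and Ier3 has none.

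Crem, the CREB family gene described above, was higher with acLDL than without it in both genotypes. Its probe above noise (ILMN_1242622) had deposited intensities of 163.3 and 149.9 in KI with acLDL, 97.3 and 88.6 in KI untreated, 177.6 and 200.4 in WT with acLDL, and 73.3 and 46.2 in WT untreated. No 2 of the 4 groups overlapped, and from low to high they ran WT untreated, KI untreated, KI acLDL and WT acLDL. This full order without overlap was shown by 22 of 10187 tested genes and probes (0.216%), and among the members by Crem alone. Its ends are the WT groups whose difference chose Crem, and only this order and its reverse were counted. The share is therefore a description and no measure of rarity for a gene chosen that way. On the log2 scale after background correction, Crem averaged 7.65 ± 0.07 in KI with acLDL and 7.10 ± 0.07 in KI untreated (SD, n = 2 each), a 1.46-fold difference. In the fit over all genes the KI difference was 0.55 (SE 0.14, 95% interval 0.22 to 0.88) and did not pass (limma adjusted p = 0.646). It lay between 0.46 and 0.75 over 16 alternatives. Other filters, or leaving out a WT array, cannot move this difference. Leaving out 1 KI array cannot turn its sign either, because the KI groups do not overlap. The unchanged sign is therefore no support. In WT, Crem averaged 7.86 ± 0.10 with acLDL and 6.69 ± 0.27 untreated (SD, n = 2 each), 2.26-fold apart, and without the lower or the higher untreated WT array this log2 difference was 0.99 or 1.37. The other 3 Crem probes were above noise on 0 of 8 arrays, between -19.8 and 14 intensity units, so the result rests on 1 probe.

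Dusp8, a phosphatase gene whose protein acts on the stress kinases JNK and p38, differed mainly in one group. It had 473.9 and 467.6 intensity units in KI with acLDL, 384.6 and 457.4 in KI untreated, 468.6 and 524.0 in WT with acLDL, and 238.7 and 229.7 in WT untreated. The untreated WT arrays were the lowest by a wide gap, the acLDL groups of the 2 genotypes overlapped, and both untreated KI arrays lay above both untreated WT arrays. In KI the mean log2 intensity was 9.01 ± 0.01 with acLDL and 8.86 ± 0.16 without (SD, n = 2 each), and the difference of 0.15 (SE 0.12, 95% interval -0.12 to 0.42) did not pass (limma adjusted p = 0.842). It was 0.04 without untreated KI replicate 1 and 0.26 without untreated KI replicate 2. In WT it was 9.08 ± 0.10 with acLDL and 8.12 ± 0.03 without (SD, n = 2 each), a 1.94-fold difference. Untreated KI stood 0.74 above untreated WT on the log2 scale, and KI with acLDL 0.07 below WT with acLDL (difference -0.07). These last values use the WT arrays through which the gene was chosen.

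Dusp1, the related phosphatase gene with 1 full element, was bright on every array. It had 8391.6 and 12805.3 intensity units in KI with acLDL, 4720.1 and 10132.7 in KI untreated, 10799.9 and 10191.8 in WT with acLDL, and 7966.7 and 7451.4 in WT untreated. The WT groups did not overlap, at a log2 difference of 0.44. In KI the replicates spread more than the groups differed, and the log2 difference of 0.58 (SE 0.33, 95% interval -0.19 to 1.35) did not pass (limma adjusted p = 0.795). It was 1.13 without untreated KI replicate 2 and 0.03 without untreated KI replicate 1.

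Ier3, an immediate early gene whose protein modulates cell survival, ran the other way. It had 5426.8 and 5691.1 intensity units in KI with acLDL, 7761.0 and 6063.1 in KI untreated, 4739.4 and 5258.3 in WT with acLDL, and 7891.3 and 8690.1 in WT untreated. The 4 groups again did not overlap, and their order from high to low was that of Crem from low to high. This falling order was shown by 6 of 10187 tested genes and probes (0.0589%). Its ends are again the WT groups, in whose comparison Ier3 was named, so this share too is only a description. In KI, Ier3 averaged 12.45 ± 0.05 with acLDL and 12.75 ± 0.25 untreated (SD, n = 2 each). The log2 difference was -0.30 (SE 0.14, 95% interval -0.63 to 0.02, limma adjusted p = 0.781). Its sign was the same in 16 of 16 alternatives, which for the reasons given for Crem is no support. The difference was -0.12 without untreated KI replicate 1 and -0.48 without untreated KI replicate 2. In WT it averaged 12.30 ± 0.11 with acLDL and 13.02 ± 0.10 untreated (SD, n = 2 each), a difference of -0.73.

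**Figure D2:**
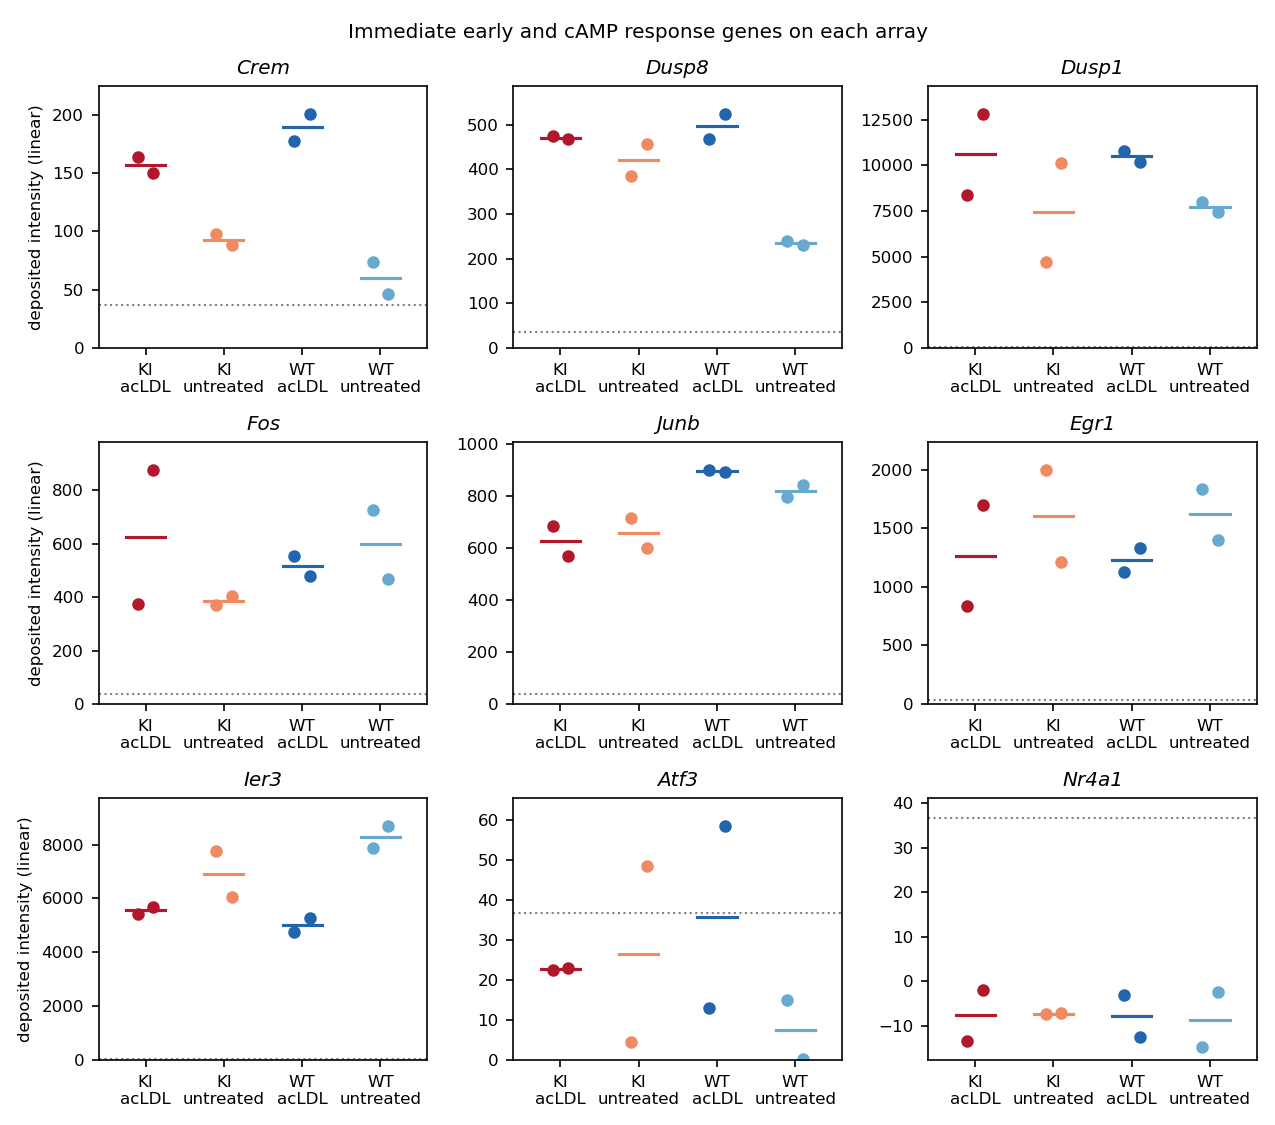
Deposited intensity (linear scale) of the 9 members on each of the 8 arrays, with a panel per gene; points are arrays, short lines are group means and the dotted line is the noise limit of 36.7. Crem and Ier3 show 4 separate groups in opposite order, Dusp8 is lowest in untreated WT, and Nr4a1 lies below the limit on all arrays.

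None of the AP-1 and EGR members had separate acLDL and untreated groups in KI, and in WT Junb and Egr1 did. Fos, an AP-1 subunit, had 376.4 and 876.3 intensity units in KI with acLDL, 369.1 and 406.0 in KI untreated, 554.7 and 477.9 in WT with acLDL, and 726.4 and 469.8 in WT untreated. A single KI acLDL array was the brightest of all 8 and its replicate among the dimmest. The log2 difference in KI was 0.53 (SE 0.34, limma adjusted p = 0.812), and -0.04 without acLDL KI replicate 2.

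Egr1, a zinc finger factor, had 840.7 and 1695.7 intensity units in KI with acLDL, 1997.8 and 1212.0 in KI untreated, 1126.6 and 1329.9 in WT with acLDL, and 1840.4 and 1404.6 in WT untreated. The WT groups did not overlap and were lower with acLDL, while the KI groups overlapped. The KI log2 difference of -0.37 (SE 0.34, limma adjusted p = 0.858) turned to 0.12 without acLDL KI replicate 1.

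Junb, an AP-1 partner of Fos, differed more by genotype than by treatment. It had 682.2 and 568.4 intensity units in KI with acLDL, 714.6 and 599.8 in KI untreated, 898.9 and 890.5 in WT with acLDL, and 795.6 and 842.6 in WT untreated. All 4 KI arrays lay below all 4 WT arrays, the only one of the 8 tested members to separate the genotypes in this way, which 8.62% of all tested genes and probes did in this direction and 6.07% in the other. The WT groups did not overlap and were higher with acLDL, by 0.12 on the log2 scale, while the KI groups overlapped. With acLDL in KI the log2 difference was -0.07 (SE 0.13, limma adjusted p = 0.941).

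Atf3 and Nr4a1 were at or near background. Atf3, a stress-induced factor of the same bZIP class as Crem, had 22.6 and 23.0 intensity units in KI with acLDL, 4.4 and 48.4 in KI untreated, 13.0 and 58.5 in WT with acLDL, and 14.9 and 0.2 in WT untreated. It was above noise on 1 array each of KI untreated and WT acLDL, so no fold is given, and its fitted differences rest on values near background. Nr4a1, an orphan nuclear receptor gene and a textbook CREB target, lay between -14.7 and -1.9 intensity units and was above noise on 0 of 8 arrays.

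Taking the members as a set, the acLDL difference in KI was tested, which is taken from arrays outside the WT comparison that chose them. The spread behind its p-values came from all 8 arrays, the WT arrays of that choice included. In the alternative fit of the 4 KI arrays alone no member passed either. At an adjusted threshold of 0.05, 0 of the 8 tested members passed (limma with Benjamini-Hochberg adjustment), against 0.0196% of all 10187 genes and probes, and 1, Crem, was below the unadjusted threshold, against 6.46% of all. The acLDL and untreated KI arrays did not overlap for 3 members, Crem and Dusp8 higher (18.2% of all were higher in this way) and Ier3 lower (20.6% of all). The median log2 difference of the 8 was 0.07, against -0.01 for all genes and probes, with 4 above and 4 below 0. The WT comparison chose Crem and Dusp8 because they passed there, as 0.177% of all genes and probes did, so their passing is no result. As a description, which uses arrays of that choice, the WT groups did not overlap for 4 higher members (21.8% of all) and 2 lower ones (19.9%). Higher with acLDL in both genotypes without overlap were 2 members, Crem and Dusp8 (4.31% of all), and lower in both was 1, Ier3 (4.03% of all). Within untreated arrays KI lay wholly above WT for Crem and Dusp8 (23.7% of all) and wholly below for Fos, Junb and Ier3 (25.6% of all). Within acLDL arrays KI lay above WT for Ier3 (24.1% of all) and below for Crem and Junb (30.8% of all). Crem alone among the members was higher in KI untreated and lower in KI with acLDL (3.33% of all), and Ier3 alone the reverse (2.6% of all).

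The genotypes were also compared over both treatments, a contrast whose estimate is independent of the acLDL difference in WT because every group has 2 arrays. Its p-values and intervals use the spread of all 8 arrays. For Crem and Dusp8, chosen by a WT test with that same spread, they are therefore not independent of the choice. Of the 8 members 0 passed (limma), against 3.39% of all genes and probes, (1.33% higher and 2.06% lower in KI), and 2 were below the unadjusted threshold of 0.05, against 26.6% of all. Junb averaged 9.42 in KI and 9.81 in WT on the log2 scale, a difference of -0.40 (SE 0.09, 95% interval -0.61 to -0.19, limma adjusted p = 0.0527). Dusp8 averaged 8.93 in KI and 8.60 in WT, a difference of 0.33 (SE 0.08, 95% interval 0.14 to 0.53, limma adjusted p = 0.0617). Both fell on the other side of the threshold when only genes above noise on all 8 arrays were tested (limma adjusted p = 0.0369 for Junb and 0.0442 for Dusp8), and Junb also with a normexp offset of 50 (limma adjusted p = 0.0403). For the other 6 the log2 difference lay between -0.20 (Fos) and 0.10 (Crem). The background itself was unsteady, since 345 genes and probes passed on all arrays. The count was 10 and 3 without KI acLDL replicates 1 and 2, 0 and 5 without KI untreated replicates 1 and 2, 10 and 578 without WT acLDL replicates 1 and 2, and 2 and 6 without WT untreated replicates 1 and 2.

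**Figure D3:**
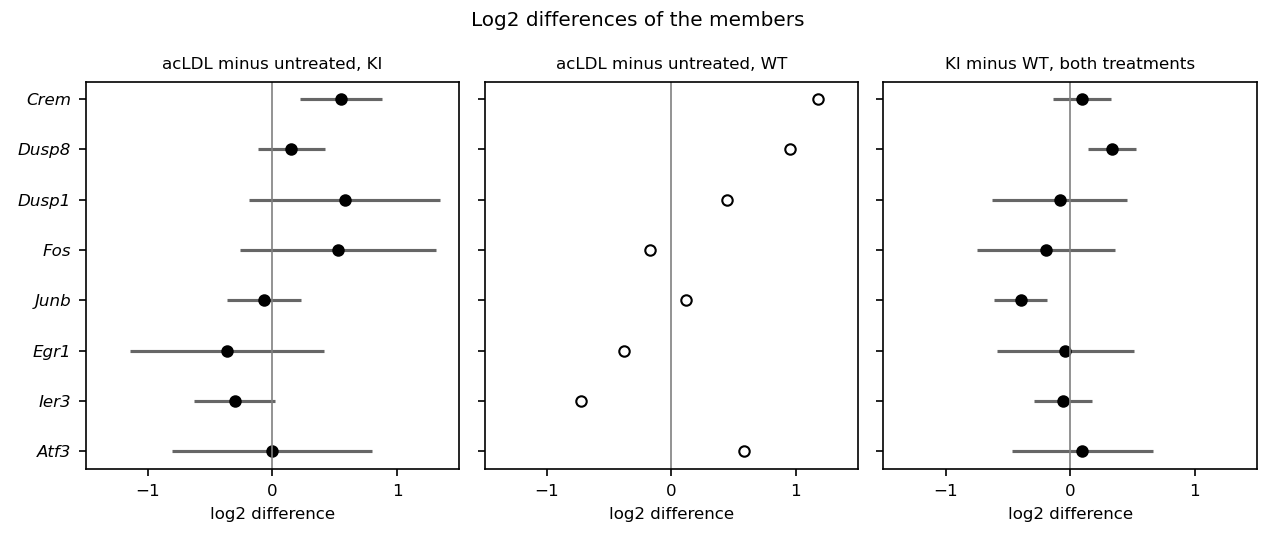
Log2 differences of the 8 members that passed the filter, for acLDL minus untreated in KI, acLDL minus untreated in WT, and KI minus WT over both treatments; bars are 95% intervals of the limma fit, and the WT panel has none because members were chosen there. Crem lies at 0.55 in KI and 1.18 in WT, Ier3 at -0.30 and -0.73, and the intervals of Junb and Dusp8 in the genotype panel do not cross 0.

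The genes whose pattern over the 8 arrays was most like that of a member were then listed, by Pearson r among 8749 named genes that are no members, as a description of arrays that share groups. Crem was most like Ahsa2, a relative of an HSP90 co-chaperone gene (r = 0.97 over 8 arrays), Npr3, a natriuretic peptide receptor gene (0.96), and Dennd5b (0.95). Dennd5b was under the noise limit on all 4 untreated arrays, at 9.7 to 33.2 intensity units, and between 40.9 and 49.2 on the acLDL arrays, so it passed the filter through the groups where it is high and its likeness to Crem and Dusp8 is partly fixed by the filter. Dusp8 was most like Naa16, an acetyltransferase subunit gene (0.99), Dennd5b (0.98) and Stip1, an HSP70 and HSP90 co-chaperone gene (0.98). Stip1 had 2740.5 and 3191.1 intensity units in KI with acLDL, 1796.2 and 2683.6 in KI untreated, 2762.9 and 2989.7 in WT with acLDL, and 1115.7 and 1125.1 in WT untreated, again lowest in untreated WT. Ier3 was most like Sox18, an endothelial transcription factor gene (0.98), Dpp3 (0.96) and Pcgf1 (0.96). The nearest to Fos were Cspp1 (0.96), Zfp24 (0.95) and Wars2 (0.94), and the nearest to Egr1 were Slc10a3 (0.92), Gps2 (0.90) and Tbc1d25 (0.89).

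**Figure D4:**
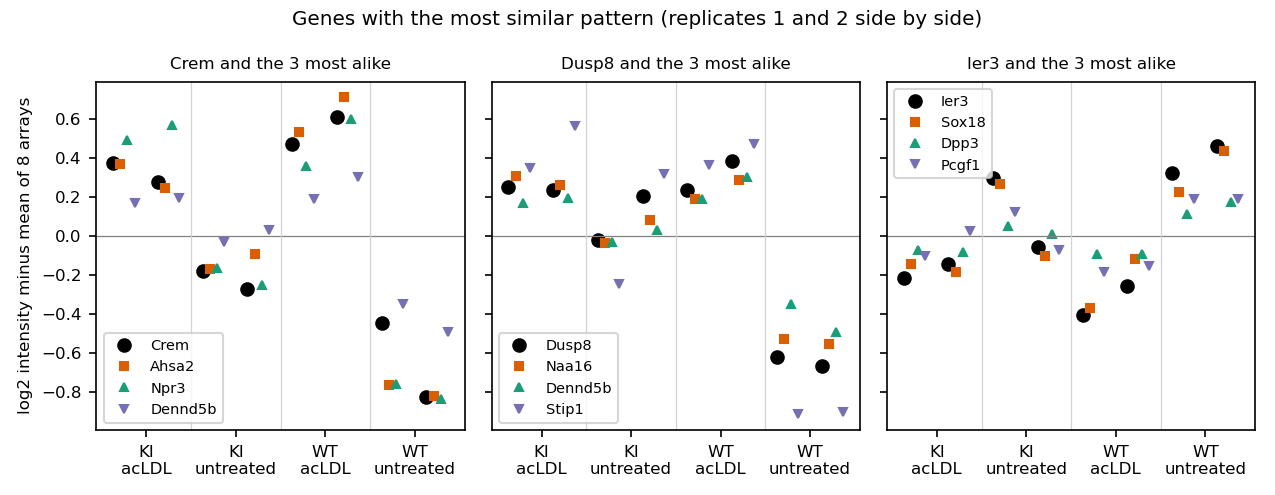
Log2 intensity minus the mean of the 8 arrays for Crem, Dusp8 and Ier3 and the 3 genes most like each; the x axis gives the 4 groups with replicates 1 and 2 side by side, and symbols are genes. Crem with Ahsa2 and Npr3 is lowest in untreated WT, and Ier3 is highest there.

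Heat shock chaperone genes were on the same side as Crem and Dusp8. In KI all 7 tested chaperones of 13 listed were above 0, at a median log2 difference of 0.34. In WT all 7 were, at a median of 1.45. Of all genes and probes, 47.9% were above 0 in KI (median -0.01) and 52.1% in WT (median 0.01). The list was chosen with earlier results of these data known, so these values are a description and no support. The KI median of the chaperones was 0.17 without untreated KI replicate 1 and 0.48 without untreated KI replicate 2. Without acLDL KI replicate 2, 6 of the 7 were above 0. Dnajb1, an HSP40 co-chaperone, had 7543.7 and 7451.4 intensity units in KI with acLDL, 2989.7 and 6259.3 in KI untreated, 9670.3 and 8642.5 in WT with acLDL, and 2166.2 and 1984.8 in WT untreated. None of the 7 passed in KI (limma adjusted p = 0.766 for Dnajb1, Bag3 and Hsph1). Summed neutrophil marker intensity was higher with acLDL in KI and lower with acLDL in WT, at 4894.5 to 5386.8 in KI with acLDL and 3255.6 to 3716.0 in KI untreated, against 1684.2 to 2314.3 in WT with acLDL and 3791.5 to 4069.2 in WT untreated (8 of 9 listed genes with a probe, 4 of them above noise on all arrays and Ngp, Mpo, Elane and Cxcr2 on none). Summed lymphocyte markers were lower with acLDL in both genotypes, at 2122.4 to 2410.0 with and 2483.3 to 2603.2 without it in KI, and at 1789.1 to 2065.4 with and 2750.9 to 3027.7 without it in WT (8 of 10 with a probe, 7 above noise on all arrays and Cd4 on none). Summed striated muscle markers (all 7 with a probe, 2 above noise on all arrays) differed most between replicates, at 6660.9 and 4112.9 in KI with acLDL, 5676.6 and 18075.1 in KI untreated, 1525.2 and 7218.6 in WT with acLDL, and 10443.1 and 2049.1 in WT untreated. Summed adipocyte markers (1 of 6 above noise on all arrays) were at 440.5 and 701.9 in KI with acLDL and 615.8 and 1470.8 untreated. In WT they were at 251.9 and 998.8 with acLDL and 340.8 and 172.3 untreated. Of these 6 genes, 3 were above noise on no array. Untreated KI replicate 2 was the highest of the 8 arrays in both the striated muscle and the adipocyte sum. With 2 arrays in a group, leaving out either one moves the difference of any gene equally far, in opposite directions. Such moves, as of Dusp1, Dusp8, Ier3 and the list medians, therefore cannot show which untreated KI array is unusual. The part of these cells and genes in the member values was not tested.

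Further immediate early genes of the transcription factor families mostly lay above 0 with acLDL without passing the test. Of 18 listed AP-1, EGR, NR4A and KLF genes 11 were tested, and in KI 9 were above 0 at a median log2 difference of 0.23 (all genes and probes -0.01), with 0 called in either direction. Klf4, a zinc finger factor, had 928.9 and 1126.6 intensity units in KI with acLDL and 591.3 and 808.2 in KI untreated (log2 difference 0.54, SE 0.18, limma adjusted p = 0.765). Egr2 had a log2 difference of 0.35 and Klf6 one of 0.28. The KI median was 0.07 without untreated KI replicate 1, with 6 of the 11 above 0. It was 0.32 without untreated KI replicate 2, with 9 above 0. On all arrays, 47.9% of all genes and probes were above 0 in KI. Csrnp1, Klf2 and Nr4a2, picked after their values were seen, were each brighter on untreated KI replicate 2 than on replicate 1.

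In WT the same 11 genes had a median of 0.35, with 10 above 0. Csrnp1, an immediate early nuclear protein gene singled out here after its values were seen, had 326.7 and 254.7 intensity units in WT with acLDL and 101.6 and 48.8 in WT untreated. In KI it had 113.6 and 157.4 with acLDL and 49.9 and 172.7 untreated, where the groups overlapped. By genotype 0 of the 11 passed. Jund, an AP-1 subunit, was nearest, at 388.2 and 277.5 in KI with acLDL and 409.7 and 358.4 in KI untreated, against 726.6 and 436.0 in WT with acLDL and 517.6 and 531.3 in WT untreated (log2 difference KI minus WT -0.56, SE 0.16, limma adjusted p = 0.0830).

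Among 20 other immediate early genes 14 were tested, with 10 above 0 in KI at a median of 0.21 and 0 called. Phlda1 had 3435.2 and 3697.2 intensity units in KI with acLDL, 2180.2 and 2852.6 in KI untreated, 3918.8 and 3299.3 in WT with acLDL, and 2135.1 and 2222.2 in WT untreated, and its KI log2 difference was 0.51 (SE 0.15, limma adjusted p = 0.727). Ccn2, a matricellular protein gene, had a KI difference of 0.45 and Socs3, a cytokine signalling inhibitor, one of 0.46. The median of these 14 was 0.01 without untreated KI replicate 1, with 7 above 0. It was 0.30 without untreated KI replicate 2, with 11 above 0. In WT the median was 0.24. Errfi1, a feedback inhibitor of the EGF receptor singled out after its values were seen, had 6812.2 and 5709.0 intensity units in KI with acLDL, 3856.7 and 7505.4 in KI untreated, 11814.6 and 11358.5 in WT with acLDL, and 4357.5 and 3496.3 in WT untreated. Zfp36, a mRNA decay factor, was nearest to a genotype call (log2 difference -0.53, SE 0.14, limma adjusted p = 0.0730).

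Of 35 cAMP and CREB pathway genes 27 were tested, and by genotype 1 passed, a share near the 3.39% of all genes and probes. Pde4a, a phosphodiesterase that breaks down cAMP, was higher in KI over both treatments (log2 difference 0.70, SE 0.11, limma adjusted p = 0.0428). It had 151.3 and 206.5 intensity units in KI with acLDL and 89.5 and 100.0 in KI untreated, against 80.0 and 71.2 in WT with acLDL and 62.0 and 44.5 in WT untreated, so that all KI arrays lay above all WT arrays. The call held in 6 of 15 alternatives, and the adjusted p was 0.0545 and 0.138 without KI acLDL replicates 1 and 2, 0.0715 and 0.126 without KI untreated replicates 1 and 2, 0.108 without WT acLDL replicate 1, and 0.0915 and 0.119 without WT untreated replicates 1 and 2. Pde7a, another phosphodiesterase, had a difference of 0.62 (limma adjusted p = 0.0511, and 0.0392 to 0.0489 in the 4 alternatives in which it passed), and Crtc2, a CREB coactivator, one of -0.46 (limma adjusted p = 0.0908). With acLDL in KI 0 of the 27 passed and 14 were above 0, at a median of 0.04. In WT 24 of the 27 were above 0, at a median of 0.18, where 52.1% of all genes and probes were above 0.

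Of 9 other MAP kinase phosphatases 6 were tested and 0 passed in either comparison. Dusp6, which acts on ERK kinases, had 1727.0 and 1853.4 intensity units in KI with acLDL and 1490.9 and 1234.9 in KI untreated (log2 difference 0.39, SE 0.12, limma adjusted p = 0.732). Dusp16, which acts on JNK, had 507.6 and 471.7 in KI with acLDL and 496.7 and 518.5 in KI untreated, against 1003.8 and 719.4 in WT with acLDL and 576.0 and 535.3 in WT untreated (log2 difference KI minus WT -0.43, SE 0.11, limma adjusted p = 0.0639). Of 24 MAP kinases, kinase kinases and serum response factor partners 11 were tested and 0 passed. Mapk14, the p38 alpha gene, was nearest, at 837.5 and 1012.6 in KI with acLDL and 887.1 and 813.4 in KI untreated, against 646.0 and 667.3 in WT with acLDL and 605.6 and 693.5 in WT untreated (log2 difference KI minus WT 0.42, SE 0.09, limma adjusted p = 0.0511).

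**Figure D5:**
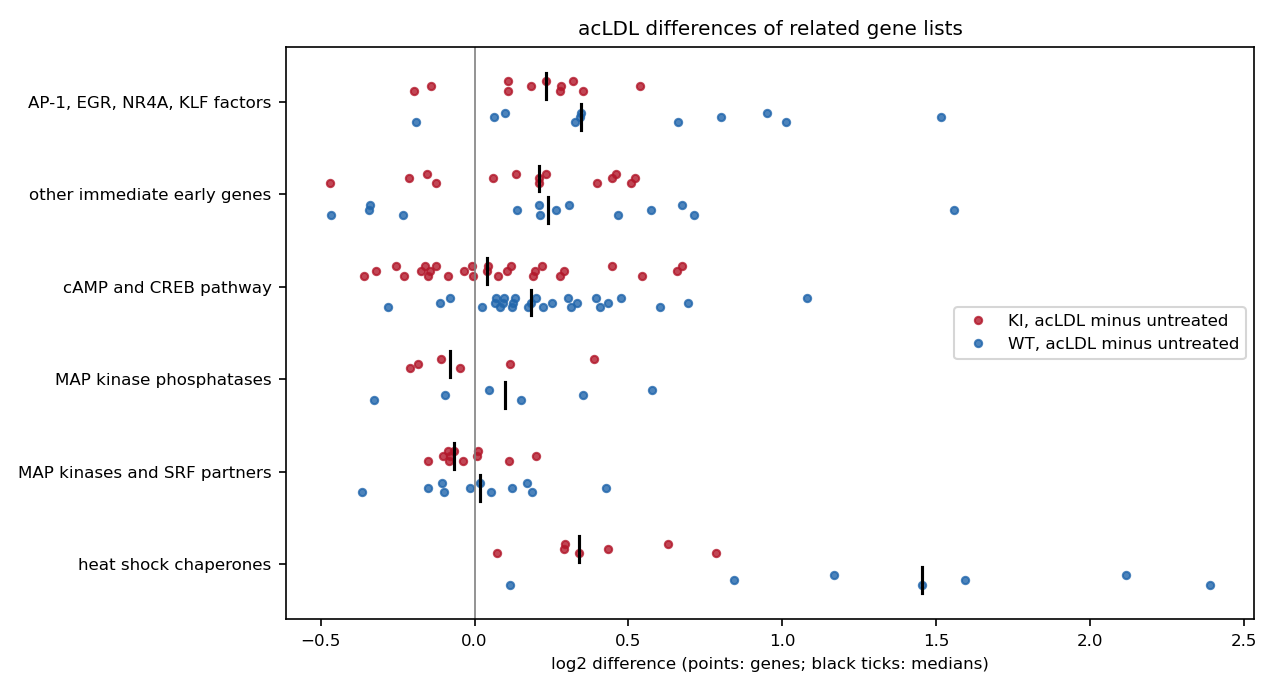
Log2 difference of acLDL minus untreated for the tested genes of 6 related lists, red for KI and blue for WT; points are genes and black ticks are list medians. Medians of the heat shock chaperones lie at 0.34 in KI and 1.45 in WT, and those of the MAP kinase list near 0 in both.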

How the data were processed

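Intensities of 24613 probes on 8 arrays were taken from the deposited value table, for which the submitters' processing notes name BeadStudio, with no version given. The deposited intensities are linear, 29.2% of them are below 0, and their quantiles are equal between arrays, so background was subtracted and quantiles were normalized, as inferred from the values. A second table has 16 per-sample columns whose names match no sample label, and these were not used. Gene names come from an annotation of another platform than the chip in the labels, joined by probe identifier.

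Values were corrected with normexp (offset 16) and log2 transformed. The negative values had a root mean square of 12.2, taken as noise, and probes above 3 times that on at least 2 arrays were kept. The brightest probe stood for a gene, giving 10187 genes and unnamed probes. One fit of all 8 arrays with limma 3.58.1 (R 4.3.3) used 4 group means, with Benjamini-Hochberg adjustment over all of them at 0.05. All groups share 1 estimate of spread (4 residual degrees of freedom), and the offset compresses folds of dim probes. The procedure was tested on simulated data. Motifs were searched on both strands.

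Members and lists were chosen with earlier results of these data known. All members are named, and list genes are drawn from the 3 with the smallest p in each tested comparison; others are marked in the text. Plots were drawn with matplotlib 3.10.9.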

Additional observations from a re-analysis of the deposited data

Results flagged for a closer look

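For Crem and Ier3 the genotype difference had opposite signs without and with acLDL on every array. Crem was higher in KI than in WT on all untreated arrays (log2 difference 0.41) and lower on all acLDL arrays (-0.22), so that the acLDL effect was 0.63 lower in KI (difference of effects -0.627). Ier3 was lower in KI than in WT untreated (-0.27) and higher with acLDL (0.15), and its difference of effects was 0.423. Patterns like that of Crem were shown by 3.33% of all tested genes and probes and patterns like that of Ier3 by 2.6%. The difference of effects was not tested, because it contains the WT comparison in which members were chosen. Over 15 alternatives it lay between -0.94 and -0.44 for Crem and between 0.25 and 0.60 for Ier3. These ranges contain the same choice, and changes of the filter cannot move the value, so they are no support.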

How the results depend on the processing

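In all 16 alternatives no member passed for acLDL in KI, and no member other than Junb and Dusp8 passed in any of 15 for the genotype difference. The count of genes and probes past the threshold for acLDL in KI, 2 on all arrays, was 1 without background correction, 1 without a filter, 0 among genes above noise on all 8 arrays, and between 0 and 6 on leaving out 1 array. The genotype count of 345 was 656 with an offset of 50, 2 without background correction, 2 without a filter, 671 among genes above noise on all 8 arrays, and between 0 and 578 on leaving out 1 array. The cause was not tested. With the replicate number as a block the counts were 2 and 413. Same-numbered arrays of different groups deviated together at r between -0.31 and 0.29 across genes, over 0.1 in 3 of 6 pairs of groups and below 0 in the 3 with WT untreated, so the numbers were not taken as pairs. The block changed no call on a member. For acLDL in KI, leaving out 1 array gave log2 differences between -0.19 and 0.055 for Junb, -0.036 and 1.09 for Fos, -0.86 and 0.12 for Egr1, and -0.47 and 0.46 for Atf3, which was 0.64 without background correction. For the genotype difference the range was -0.36 to 0.19 for Dusp1, -0.48 to 0.087 for Fos, -0.28 to 0.21 for Egr1, -0.15 to 0.030 for Ier3, and -0.14 to 0.33 for Atf3, all of them crossing 0. The Atf3 values are of a probe at or near background and give no size or direction. Among 36 values of named list genes, 1 sign turned in 554 recomputed values (Dusp14 in KI). Changes of the filter cannot move these values, nor can leaving out a WT array for acLDL in KI. The genes were also picked for a small p, so this count does not measure stability of sign. By genotype, 12 values of list genes passed that had not on all arrays. They were those of Pde7a with an offset of 50 (limma adjusted p = 0.0417), with every probe on its own (0.0489), with the replicate block (0.0392) and without WT acLDL replicate 2 (0.0402); Dusp16 with an offset of 50 (0.0492), above noise on all 8 arrays (0.0444) and without WT acLDL replicate 2 (0.0298); Mapk14 with an offset of 50 (0.0380), above noise on all 8 arrays (0.0358) and with every probe on its own (0.0499); and, without WT acLDL replicate 2, Jund (0.0345) and Crtc2 (0.0425). In 9 values Pde4a no longer passed. List medians without single KI arrays were computed after the data were seen. The planned slide block was not run, because the sources name no slides. Signal over background limits Atf3, Nr4a1 and 3 of 4 Crem probes.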
